A study of Mus musculus with 14 samples.

Results

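Newborn mouse spinal cord was compared with mouse embryonic stem (ES) cells, both labelled wild type, locus by locus, as the ratio of 2 RNA-seq libraries. Loci were kept when they stood above 1 FPKM (fragments per kilobase of transcript, scaled to the mapped fragments of the library, so a level per length) in at least 1 of the 2 libraries, which held for 14390 of the 23152 loci in the table. Of these, 14348 had a usable estimate in both libraries. The estimate had failed at 41 loci, and at 1 more, Tuba1a, too much data stopped the estimate. Tuba1a, a major tubulin of young neurons, was therefore listed at 0 FPKM in spinal cord and is not read as a low value.

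The ES cells were the JM8 line on a C57BL/6 background, cultured with serum and LIF on a feeder layer of mouse embryonic fibroblasts whose division had been blocked. The spinal cord was dissected from newborn C57BL/6 wild-type mice. The labels also enter the JM8 clone as the cell line of the tissue, and neither the number of animals pooled nor their sex is given. Neither sample is labelled as carrying the Taf9b deletion that the wider study is about, but the Taf9b level of the ES library, given below, goes against its label. Each side is 1 library, so no spread between replicates exists, no test across loci was possible, and every ratio below is a difference between these 2 libraries. A bulk library also cannot tell fewer cells of a type from less RNA per cell.

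ES cells are held in a dividing, unspecialised state by a small network of transcription factors, with Pou5f1 (Oct4), Sox2 and Nanog at its core. The newborn spinal cord is the opposite case: most of its neurons have left the cell cycle, have received a position along the body from the Hox genes, and are forming synapses, while astrocytes and oligodendrocytes are still being made. Neuronal genes are held off in other cells largely by REST, a repressor that binds a long element in their regulatory DNA. Neurons also replace subunits of general machines, such as the BAF chromatin remodelling complex, by paralogs of their own.

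The difference between the libraries was broad. In spinal cord, 4370 loci (30.5% of those with a ratio) stood more than 2-fold higher than in ES cells and 5122 loci (35.7%) stood more than 2-fold lower, which left 4856 loci (33.8%) within 2-fold. The tail of loci higher in cord was the longer. More than 32-fold higher levels in spinal cord were seen at 1241 loci, and more than 32-fold lower levels at 566. The median log2 ratio was -0.26, with quartiles at -1.60 and 1.53. The spinal cord library held 13057 loci above 1 FPKM and the ES library 11971, and 10680 were shared. The balance between the directions depends on scaling: with both libraries brought to the same FPKM sum, 5607 loci (39.1%) stood more than 2-fold higher and 3529 (24.6%) more than 2-fold lower. That scaling adds 0.63 to every log2 ratio. All levels below are on the scale of the deposited table, and counts at equal FPKM sums are given beside a number of the lists that they move.

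**Figure D1:**
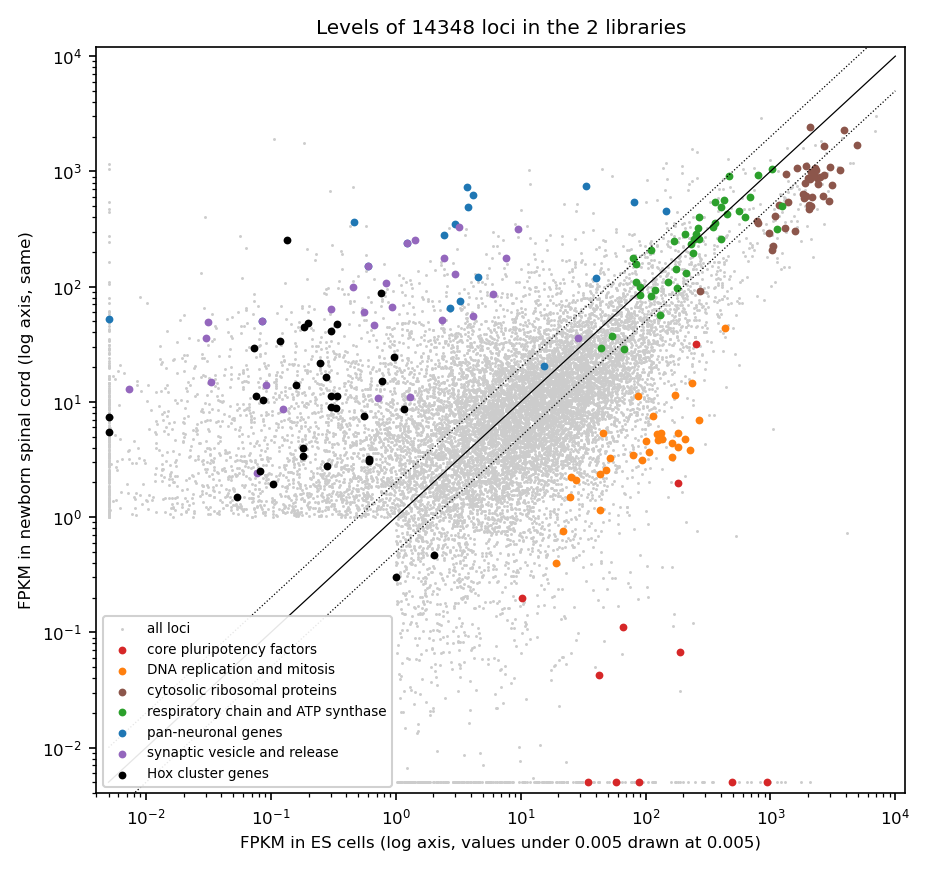
Level of each of the 14348 loci in ES cells (horizontal, FPKM, log axis) and in newborn spinal cord (vertical, FPKM, log axis), with 7 gene lists in colour and values under 0.005 FPKM drawn at 0.005. The solid line marks equal levels and the dotted lines a 2-fold difference. Pluripotency and replication genes lie below the diagonal, respiratory chain genes lie on it, and pan-neuronal, synaptic vesicle and Hox genes lie far above it.

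The genes of pluripotency were almost completely gone from the tissue. All 11 core pluripotency factors were more than 2-fold lower in spinal cord, against 35.7% of all loci, and their median log2 ratio was -11.45, or -5.91 with 1 FPKM added to each value, since cord levels were at or near 0. Pou5f1 was at 936 FPKM in ES cells and was listed at 0 in cord. Utf1, Dppa2, Dppa4 and Zfp42 (Rex1) were likewise listed at 0 in cord, from 490.1, 34.9, 57.8 and 87.8 FPKM in ES cells. Nanog was at 183 FPKM in ES cells and 1.99 in cord. The mildest member was Sox2, which neural progenitors and glia also express. Its level was 254 FPKM in ES cells and 31.9 in cord.

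All 21 genes of the naive state and of cultured ES cells were also more than 2-fold lower (median log2 ratio -9.59). Dppa5a, an RNA-binding protein of ES cells and germ cells, was among the 10 most abundant transcripts of the ES library at 4079 FPKM and stood at 0.734 FPKM in cord. L1td1 was at 190.3 and 0.0307 FPKM, and Tdh, the threonine dehydrogenase on which mouse ES cell metabolism rests, was at 295 FPKM in ES cells and listed at 0 in cord. The Krüppel-like factors, which have uses in adult tissue, kept low levels. Klf2 was at 7.91 FPKM in cord against 77.1 in ES cells. In the Nodal pathway, which patterns the early embryo, 7 of 10 genes were more than 2-fold lower and 1 more than 2-fold higher. The co-receptor Tdgf1 was at 531 and 0.688 FPKM, the inhibitor Lefty1 at 74.6 and 0.334, and the ligand Nodal at 20.3 and 0.0229. The type I receptor Acvr1b, also used by activins, was within 2-fold, at 11.3 and 20.3 FPKM. The higher gene was the ligand Gdf1, at 2.38 and 26.7 FPKM, which shares a transcript with Cers1, so its part of the reads is uncertain.

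The epithelial side of ES cells went with them. All 13 simple epithelium genes above 1 FPKM were more than 2-fold lower in cord (median log2 ratio -7.88). The adhesion genes Epcam and Cdh1 (E-cadherin) were at 170.0 and 159 FPKM in ES cells against 0.143 and 2.03 in cord. The keratins Krt8 and Krt18 were at 87.2 and 74.6 FPKM against 0.194 and 0.247, while the tight junction genes Cldn6 and Cldn7 were listed at 0 in cord. Cdh2 (N-cadherin), the cadherin of neural tissue, ran the other way, with 6.34 FPKM in ES cells and 40.1 in cord. Of 14 genes of epithelial and mesenchymal state, 3 were more than 2-fold higher, namely Cdh2 and the repressors Zeb1 and Zeb2, and 9 were more than 2-fold lower.

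Of 11 DNA methylation genes, 3 were more than 2-fold higher and 6 lower, against 30.5% and 35.7% of all loci. The de novo enzyme Dnmt3b was at 102 FPKM in ES cells and 0.376 in cord, and its cofactor Dnmt3l at 239.7 and 0.121. Dnmt3a, the other de novo enzyme, was at 20.8 FPKM in ES cells and 20.8 in cord. The maintenance pair Dnmt1 and Uhrf1, which follow replication, were at 59.6 and 135 FPKM in ES cells and 13.7 and 2.60 in cord. Among the TET enzymes, which oxidise methylcytosine, Tet1 and Tet2 were lower in cord (55.1 to 3.02 and 12.6 to 1.77 FPKM), whereas Tet3 was higher (1.06 to 7.56 FPKM).

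Genes of growth were lower throughout. Each of the 30 genes of DNA replication and mitosis was more than 2-fold lower in spinal cord, with a median log2 ratio of -4.60 and log2 ratios from -5.89 to -2.97. The sliding clamp Pcna was at 434 FPKM in ES cells and 43.3 in cord, the helicase subunit Mcm3 at 164 and 3.31, and cyclin B1 (Ccnb1) at 227 and 3.83. The proliferation marker Mki67 was at 27.5 and 2.09 FPKM. The levels that remained in cord were low but not 0. Of 8 cell cycle exit genes, 2 were more than 2-fold higher and 3 lower, near the 30.5% and 35.7% of all loci. At equal FPKM sums the counts were 4 and 2, against 39.1% and 24.6% of all loci. The inhibitors Cdkn1c (p57) and Cdkn2d (p19) were higher in cord (9.65 to 59.2 and 4.87 to 19.6 FPKM), whereas Gadd45a and Cdkn1a (p21) were lower (78.9 to 4.06 and 77.0 to 38.2 FPKM).

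All 16 ribosome biogenesis genes were more than 2-fold lower (median log2 ratio -2.90). The nucleolar protein Npm1 was at 2183 FPKM in ES cells and 179 in cord, and nucleolin (Ncl) at 436 and 36.8. Cytosolic ribosomal proteins differed less. Of 44 genes, 43 were lower and 38 more than 2-fold lower, with a median log2 ratio of -1.47. Rps18 was at 2917 and 548 FPKM, while the only member above its ES level was Rps27, at 2082 and 2409 FPKM. Summed over the list, the ribosomal proteins made up 90138 FPKM of the ES library and 35294 of the spinal cord library, out of 637116 and 411263 FPKM over all loci.

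Respiratory chain and ATP synthase genes stood close to level, with 35 of 40 within 2-fold and a median log2 ratio of -0.06, or 0.57 with the libraries brought to the same FPKM sum. The complex I subunit Ndufa5 had the highest ratio (79.5 FPKM in ES cells and 178 in cord), and the complex IV subunit Cox7c the lowest (1119 and 318 FPKM). Genes often chosen as references in expression work were not level on the deposited scale. All 12 had lower values in cord, 6 of them more than 2-fold, and their median log2 ratio was -1.09. Gapdh was at 4336 and 1182 FPKM, Pgk1 at 931 and 181, and Ywhaz, the closest to level, at 298 and 270.0. At equal FPKM sums, 9 of the reference genes were lower and 2 more than 2-fold lower, and 41 of the ribosomal protein genes were lower and 16 more than 2-fold lower, against 24.6% of all loci. Of the respiratory chain genes, 10 were then more than 2-fold higher, against 39.1% of all loci.

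Families grouped by gene symbol, which were chosen after their values had been seen, covered other parts of the growth machinery. 21 of 22 nucleoporin genes, 7 of 7 chaperonin subunits, 29 of 39 proteasome subunits and 37 of 52 translation initiation factors were more than 2-fold lower in cord. At equal FPKM sums the counts were 20, 7, 6 and 25, so that the proteasome share fell below the 24.6% of all loci. Among 55 histone genes, each counted once by symbol, 44 were more than 2-fold lower, or 36 at equal FPKM sums. The 4 histone genes more than 2-fold higher included the linker histone H1f0, a variant of cells that have stopped dividing, at 22.2 and 52.3 FPKM. The libraries were made from poly-A RNA, and most replication-dependent histone messages lack a poly-A tail, so these levels cover only what such libraries capture. Of 351 zinc finger genes of the Zfp series, 87 were more than 2-fold higher and 103 more than 2-fold lower, and 131 and 75 at equal FPKM sums, so that their lean turned with the scaling.

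**Figure D2:**
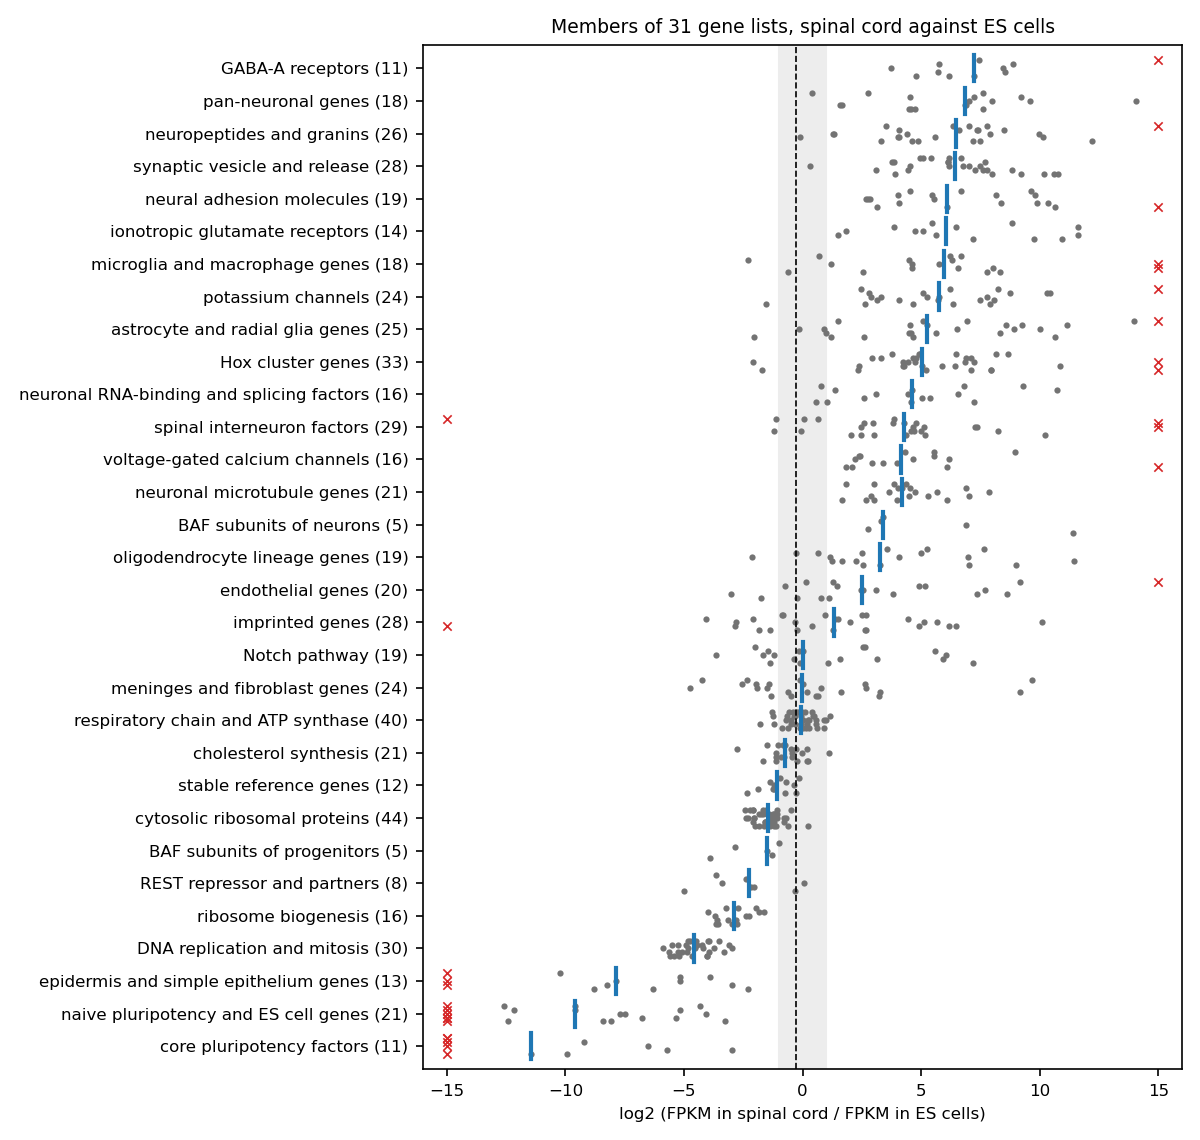
Log2 ratio of the FPKM in spinal cord to that in ES cells (horizontal) for the members above 1 FPKM of 31 gene lists (vertical, number of members in brackets). Grey points are genes, blue bars are list medians, red crosses at the edges are genes listed at 0 in 1 library, the grey band is within 2-fold and the dashed line is the median of all loci, -0.26. Among the lists drawn, medians run from -11.45 for core pluripotency factors to 7.24 for GABA-A receptors, and proneural factors, not drawn, had 8.60.

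REST and its partners were lower in the tissue. Rest itself was at 39.0 FPKM in ES cells and 1.21 in spinal cord. Its co-repressor Rcor2 was at 65.1 and 6.17 FPKM, and the deacetylases Hdac1 and Hdac2 were at 192 and 93.9 FPKM in ES cells and 15.1 and 74.2 in cord. In all, 6 of 8 genes were more than 2-fold lower. Ctdsp1, a phosphatase that works with REST, was level, with 18.2 FPKM in ES cells and slightly more in cord.

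The element that REST binds was looked for in the RefSeq promoters of the GRCm38.p6 build, which run from 250 bases before to 50 after each gene's start. The search took the letters TTCAGCACC and GGACAGC, 2 bases apart, on both strands, and allowed up to 3 of these 16 letters to differ. A promoter was at hand for 11069 genes with a ratio, 1 per gene. Such a site was found in 18 of 875 promoters of genes more than 32-fold higher in cord (2.06%), in 21 of 3908 within 2-fold (0.537%), and in 2 of 361 more than 32-fold lower (0.554%). Over all 27025 promoters the share was 0.477%. The best matches, with up to 2 letters differing, numbered 16 among the genes with a ratio, of which 8 were more than 32-fold higher in cord. The following, picked after their values had been seen, are shown because they include genes with established neuronal roles and also the exceptions. Capitals mark the searched letters, the 2 lower-case letters lie between them, each is written 5′ to 3′ on the strand that matches, and the position is that of the base farthest upstream, counted from the gene's start.

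Lhx3, chr2:26208275-26208292, minus strand, GRCm38.p6, first base at -43, 0 letters differing: TTCAGCACCgcGGACAGC
Gria2, chr3:80802989-80803006, plus strand, GRCm38.p6, first base at -171, 1 letter differing: TTTAGCACCgcGGACAGC
Syn1, chrX:20921133-20921150, minus strand, GRCm38.p6, first base at -232, 2 letters differing: TTCAGCACCgcGGTCAGA
Dner, chr1:84696354-84696371, minus strand, GRCm38.p6, first base at -150, 2 letters differing: TTCAGCACCaaGGACAAG
Rasgrf1, chr9:89909591-89909608, minus strand, GRCm38.p6, first base at -184, 2 letters differing: TTCAGCAGCgcGGACAGG
Celsr3, chr9:108825918-108825935, plus strand, GRCm38.p6, first base at -127, 1 letter differing: TTCAGCACCgtGGGCAGC
Scamp5, chr9:57468197-57468214, minus strand, GRCm38.p6, first base at -154, 1 letter differing: TTTAGCACCacGGACAGC
Ogdhl, chr14:32321914-32321931, plus strand, GRCm38.p6, first base at -105, 1 letter differing: GTCAGCACCtcGGACAGC
Mcm5, chr8:75109493-75109510, minus strand, GRCm38.p6, first base at -16, 2 letters differing: TTCAGCGCCgcGGATAGC

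Gria2, an AMPA receptor subunit, was at 0.00592 and 18.4 FPKM. Syn1 (synapsin I), which tethers synaptic vesicles, was at 2.98 and 129 FPKM, and the Notch-related neuronal protein Dner at 1.30 and 114. Rasgrf1, a neuronal exchange factor for Ras, was listed at 0 in ES cells and at 34.2 FPKM in cord. The motor neuron factor Lhx3, the only exact match, was at 0.0236 and 2.29 FPKM. Celsr3 and Scamp5 were closer to level, at 1.81 and 4.15 and at 19.2 and 68.6 FPKM. Ogdhl and the replication helicase subunit Mcm5 ran the other way, at 45.1 and 7.67 and at 182 and 4.01 FPKM. A match is a string of letters, not a measured binding site.

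The stretches of 250 bases before the start of Gria2 and Syn1 are given to show where the match lies, with the match in capitals, in the direction of the gene. In Gria2 the match is on the opposite strand.

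Gria2, chr3:80802836-80803085, minus strand, GRCm38.p6: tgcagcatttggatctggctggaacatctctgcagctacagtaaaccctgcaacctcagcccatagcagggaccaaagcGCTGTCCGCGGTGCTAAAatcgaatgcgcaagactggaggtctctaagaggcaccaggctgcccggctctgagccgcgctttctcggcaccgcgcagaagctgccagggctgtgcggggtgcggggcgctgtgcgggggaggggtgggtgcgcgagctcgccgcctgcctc
Syn1, chrX:20920919-20921168, minus strand, GRCm38.p6: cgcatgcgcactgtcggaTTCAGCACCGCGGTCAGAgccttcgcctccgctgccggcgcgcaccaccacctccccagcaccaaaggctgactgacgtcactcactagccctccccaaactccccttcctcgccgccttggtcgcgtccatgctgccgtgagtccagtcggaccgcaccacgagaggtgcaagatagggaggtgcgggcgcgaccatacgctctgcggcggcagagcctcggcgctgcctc

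The subunits of the BAF complex differed throughout. All 5 genes listed here as progenitor subunits were more than 2-fold lower in cord, against 35.7% of all loci. All 5 listed as neuronal subunits were more than 2-fold higher, against 30.5% of all loci. At equal FPKM sums all genes of the progenitor list were still lower, but only 2 of 5 more than 2-fold. Actl6a (BAF53a), the actin-like subunit of dividing cells, was at 107 FPKM in ES cells and 7.19 in cord, and its neuronal counterpart Actl6b (BAF53b) at 0.0188 and 50.8. Ss18 gave way to Ss18l1 in the same manner, with 73.9 and 10.3 FPKM for the first and 1.93 and 19.3 for the second. Of the ATPases, Smarca4 (BRG1) was at 65.3 and 32.4 FPKM, only just past 2-fold, and Smarca2 (BRM) at 3.09 and 32.7. Both were thus present at like levels in the tissue, so their listing under progenitors and neurons is no sign of a switch.

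Other paralogs were examined in the same way. All 9 paralogs of proliferating cells were more than 2-fold lower, and 9 of 11 paralogs of neural tissue were more than 2-fold higher. The splicing repressor Ptbp1 was at 283 and 25.7 FPKM and its neuronal relative Ptbp2 at 12.9 and 33.3. The glycolytic enolase Eno1 was at 1757 and 247 FPKM and the neuronal Eno2 at 1.55 and 107, so Eno1 remained the more abundant. Aldolase C (Aldoc), found in astrocytes, reached 519 FPKM in cord from 22.1, beside 469 FPKM of aldolase A (Aldoa), which had been at 1655. The RNA-binding protein Elavl1 (HuR) was at 33.2 and 9.30 FPKM and the neuronal Elavl3 (HuC) at 2.51 and 82.7. Ezh1, which takes over from the Polycomb enzyme Ezh2 in resting cells, was not higher (7.86 and 5.87 FPKM), while Ezh2 was at 87.0 and 4.12.

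**Figure D3:**
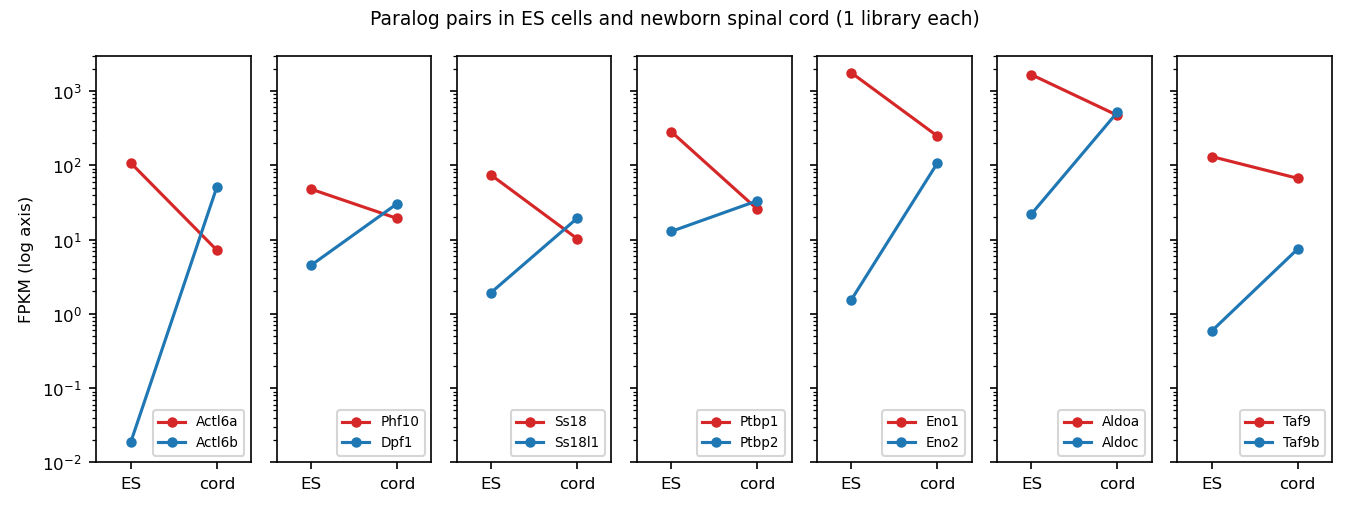
FPKM (vertical, log axis) in ES cells and in newborn spinal cord for 7 pairs of paralogs, with the member of dividing cells in red and that of neural tissue in blue, 1 library per point. The pairs are a choice from the lists. In every pair drawn the red member was lower and the blue member higher in spinal cord, whereas Ezh2 and Ezh1, not drawn, were both lower. Actl6a and Actl6b, Phf10 and Dpf1, Ss18 and Ss18l1, Ptbp1 and Ptbp2, and Aldoa and Aldoc changed order, whereas Eno1 and Taf9 remained above Eno2 and Taf9b.

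Taf9b, the core promoter factor at the centre of the study, was at 0.585 FPKM in ES cells and 7.44 in cord, and its paralog Taf9, within 2-fold, at 131 and 66.7. Among all loci, Taf9b ranked 1822 by its ratio, so that 12.7% of loci had a higher one. Its level moved from below 86.7% of loci in ES cells to near the middle of the distribution in cord, where 50.5% of loci stood above it. The size of its ratio, its rank and its place among the loci of ES cells rest on the ES library used. Rank and place were worked out only with the library labelled WT. In the ES library labelled KO, listed beside the ES library labelled WT in another table, Taf9b stood at 3.06 FPKM against 0.537 in the one labelled WT, which goes against the labels, and with the library labelled KO as the ES side the log2 ratio was 1.16 in place of 3.67.

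RNA-binding proteins that shape neuronal splicing were more than 2-fold higher in cord at 14 of 16 genes, with a median log2 ratio of 4.61. Rbfox1 was at 0.0339 and 57.6 FPKM and Rbfox3, whose protein is the neuronal nuclear antigen NeuN, at 0.270 and 40.2. Nova1 was at 0.866 and 35.7 FPKM. Rbfox2 and Khdrbs3, both present in ES cells, were within 2-fold, at 25.7 and 44.6 and at 18.4 and 27.3 FPKM.

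Pan-neuronal genes stood at 17 of 18 more than 2-fold higher, with a median log2 ratio of 6.87. The neuronal tubulin Tubb3 was at 33.2 FPKM in ES cells and 749 in cord, the growth cone protein Gap43 at 4.18 and 628, and the reticulon Rtn1 at 3.71 and 726. Dcx, the microtubule protein of migrating young neurons, was at 0.00302 and 51.8 FPKM. Not every marker of neurons was absent from ES cells. Stmn2 and Uchl1 were at 145 and 80.9 FPKM there, against 455 and 546 in cord. The non-coding RNA Meg3 was within 2-fold, at 15.3 and 20.3 FPKM.

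Microtubule genes of neurons were higher without exception (21 of 21, median log2 ratio 4.17). The axonal tau gene Mapt was at 2.95 and 348 FPKM, the dendritic Map2 at 4.54 and 121, and the tubulins Tubb2a and Tubb2b at 1040.2 and 1171 in cord. The kinesin Kif5a, a motor of axonal transport, was at 1.61 and 80.9 FPKM. Intermediate filament genes were more than 2-fold higher at 6 of 8, with the neurofilament triplet of axons, Nefl, Nefm and Nefh, at 518, 189 and 33.9 FPKM in cord against 28.2, 0.579 and 4.76 in ES cells. The filaments of immature and mesenchymal cells, Vim and Nes, were within 2-fold, at 450.2 and 282 and at 10.3 and 5.74 FPKM.

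Neural adhesion molecules were scarce in ES cells. All 19 were more than 2-fold higher in cord, with a median level of 0.513 FPKM in ES cells and 22.9 in cord. The neurexins, presynaptic adhesion proteins, included Nrxn2 and Nrxn3, which reached 118 and 16.7 FPKM from 1.14 and, for Nrxn3, a listing at 0. Their partners Nlgn1, Nlgn2 and Nlgn3 were at 13.2, 63.2 and 22.9 FPKM. The contactin Cntn1 was at 0.0714 and 57.3 FPKM. The clustered protocadherins of the beta series, a family picked after its values had been seen, were more than 2-fold higher at 17 of 17 genes.

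Axon guidance genes were less uniform, with 16 of 23 more than 2-fold higher and 3 more than 2-fold lower. The netrin receptor Dcc was at 0.00199 and 3.48 FPKM and the Slit receptor Robo2 at 0.393 and 22.4. The ephrin Efnb3, which marks the spinal midline, was at 1.10 and 102 FPKM. The ligand netrin-1 (Ntn1) was as high in ES cells as in cord (28.8 and 30.4 FPKM), and the receptor Unc5b was lower (18.4 and 1.18 FPKM).

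The release machinery of synapses was present in the newborn cord. Of 28 synaptic vesicle genes, 27 were more than 2-fold higher (median log2 ratio 6.43). The vesicle protein synaptophysin (Syp) was at 1.23 and 238 FPKM, the small GTPase Rab3a at 3.19 and 328, and the SNARE proteins Snap25 and Vamp2 at 0.598 and 151 and at 9.46 and 318. The calcium sensors Syt1 and Syt2 were at 49.8 and 14.9 FPKM in cord. On the receiving side, 9 of 11 scaffold genes were more than 2-fold higher, led in level by Dlg4 (PSD-95) at 4.92 and 110.5 FPKM. Homer1, a scaffold used outside synapses too, was at 10.1 and 6.66 FPKM.

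Transmitter genes showed which chemistries the tissue RNA held. All 8 genes of GABA and glycine synthesis and transport were more than 2-fold higher. The vesicular transporter shared by both inhibitory transmitters, Slc32a1 (VGAT), was at 0.203 and 68.1 FPKM, the glycine transporter of inhibitory neurons Slc6a5 (GlyT2) at 0.00848 and 15.1, and the GABA transporter Slc6a11 (GAT3), found on astrocytes, at 0.0627 and 217. The glutamate transporter of spinal excitatory neurons, Slc17a6 (VGLUT2), was at 0.112 and 59.3 FPKM, while Slc17a7 (VGLUT1), the forebrain form, remained under 1 FPKM in both libraries. Of 5 glutamate genes above 1 FPKM, 4 were more than 2-fold higher. All 3 acetylcholine genes above 1 FPKM were more than 2-fold higher. The vesicular acetylcholine transporter Slc18a3, of motor neurons, was at 0.288 and 22.5 FPKM and the synthetic enzyme Chat at 0.00599 and 0.791. These genes lie at a shared locus, so the split of reads between them is uncertain. Of 8 genes of monoamine synthesis, which descending fibres from the brainstem use, only Ddc exceeded 1 FPKM in either library, at 5.17 FPKM in ES cells and 2.01 in cord.

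Receptors of both inhibitory and excitatory transmitters were higher in cord. All 11 GABA-A receptor subunits above 1 FPKM were more than 2-fold higher, with a median log2 ratio of 7.24, or 2.74 with 1 FPKM added, since their median ES level was 0.0807 FPKM. Among them, Gabra3 and Gabra5 were at 32.1 and 26.9 FPKM in cord. The 5 glycine receptor genes, among them the scaffold gephyrin (Gphn), were all more than 2-fold higher too. Of the subunits, the fetal Glra2 was at 26.5 FPKM in cord and the adult Glra1 at 5.08, with Glrb, the anchoring subunit, at 21.0. Ionotropic glutamate receptor genes above 1 FPKM were all more than 2-fold higher (14 of 14). The kainate subunit Grik5 and the obligatory NMDA subunit Grin1 were the most abundant, at 53.7 and 48.5 FPKM. Of the NMDA partners, Grin2d and Grin3a reached 20.4 and 16.8 FPKM, and Grin2a and Grin2b only 1.55 and 1.56. The median ES levels of the glycine and glutamate receptor lists were 0.0378 and 0.155 FPKM. A receptor gene under 1 FPKM in ES cells was counted only if above 1 FPKM in cord, so the receptor counts lean higher by construction.

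Nicotinic receptor genes were split. The neuronal Chrna4 and Chrna7 were at 22.0 and 7.61 FPKM in cord, from 0.121 and 1.97. In all, 4 of 7 genes were more than 2-fold higher and 3 lower, against 30.5% and 35.7% of all loci. More than 2-fold lower were Chrna9, a subunit of sensory hair cells (3.24 to 0.0412 FPKM), and 2 muscle subunits. These, Chrna1 and Chrnb1, were lower in cord (2.07 to 0.267 and 1.89 to 0.257 FPKM). In the spinal column, a separate wild-type sample whose table was normalised on its own, the muscle subunits were listed at 17.6 and 25.8 FPKM.

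Ion channel genes had the same direction in all but 1 of the sodium, calcium and potassium channel genes above 1 FPKM. The counts more than 2-fold higher were 8 of 8 for sodium channels, 16 of 16 for calcium channels and 23 of 24 for potassium channels. Of 13 sodium channel genes found, only these 8 passed the filter. Median ES levels of the sodium, calcium and potassium lists were 0.401, 0.703 and 0.0889 FPKM. A gene under 1 FPKM in ES cells was counted only if above 1 FPKM in cord, so these counts lean higher by construction. The sodium channel Scn2a, the form of young axons, was at 0.109 and 17.2 FPKM, and the later Scn1a and Scn8a were at 3.83 and 7.02. The AMPA receptor regulator Cacng2 (stargazin) was listed at 0 in ES cells and at 16.7 FPKM in cord. The leak channel Kcnk9 was at 0.0201 and 25.5 FPKM and the glial channel Kcnj10 (Kir4.1) at 0.236 and 17.6. The exception was Kcnk1, another leak channel, at 23.7 and 8.06 FPKM.

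Neuropeptide and granin genes were more than 2-fold higher at 25 of 26. Somatostatin (Sst), a peptide of dorsal horn interneurons, was listed at 0 in ES cells and at 445 FPKM in cord. Neuropeptide Y (Npy) was at 0.663 and 117 FPKM and the substance P precursor Tac1 at 0.305 and 43.9. The processing enzyme Cpe was at 37.7 and 436 FPKM. Calca (CGRP), which sensory and motor neurons make, was within 2-fold, at 10.9 and 10.2, and the ES library also held the enkephalin precursor Penk at 30.2 FPKM against 76.7 in cord.

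Hox genes, which give position along the body, are ordered along their clusters as they are used from head to tail. Of 33 Hox genes above 1 FPKM in either library, 31 were more than 2-fold higher in cord. The highest level was that of Hoxb8, at 0.135 FPKM in ES cells and 252 in cord, followed by Hoxb9 at 88.2 and Hoxb7 at 48.7. Caudal genes were well represented. Among the 12 genes of paralog groups 10 to 13, 9 stood above 1 FPKM, with Hoxc10, Hoxc12 and Hoxd10 at 46.9, 45.0 and 41.0 FPKM. Among the 8 genes of groups 1 to 3, 5 stood above 1 FPKM and the highest was Hoxb3 at 13.9. Hoxb1 was listed at 0 in both libraries and Hoxd1 was under 1 FPKM in both. More than 2-fold lower in cord were 2 Hox genes, among them Hoxd13 at 2.02 and 0.471 FPKM.

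**Figure D4:**
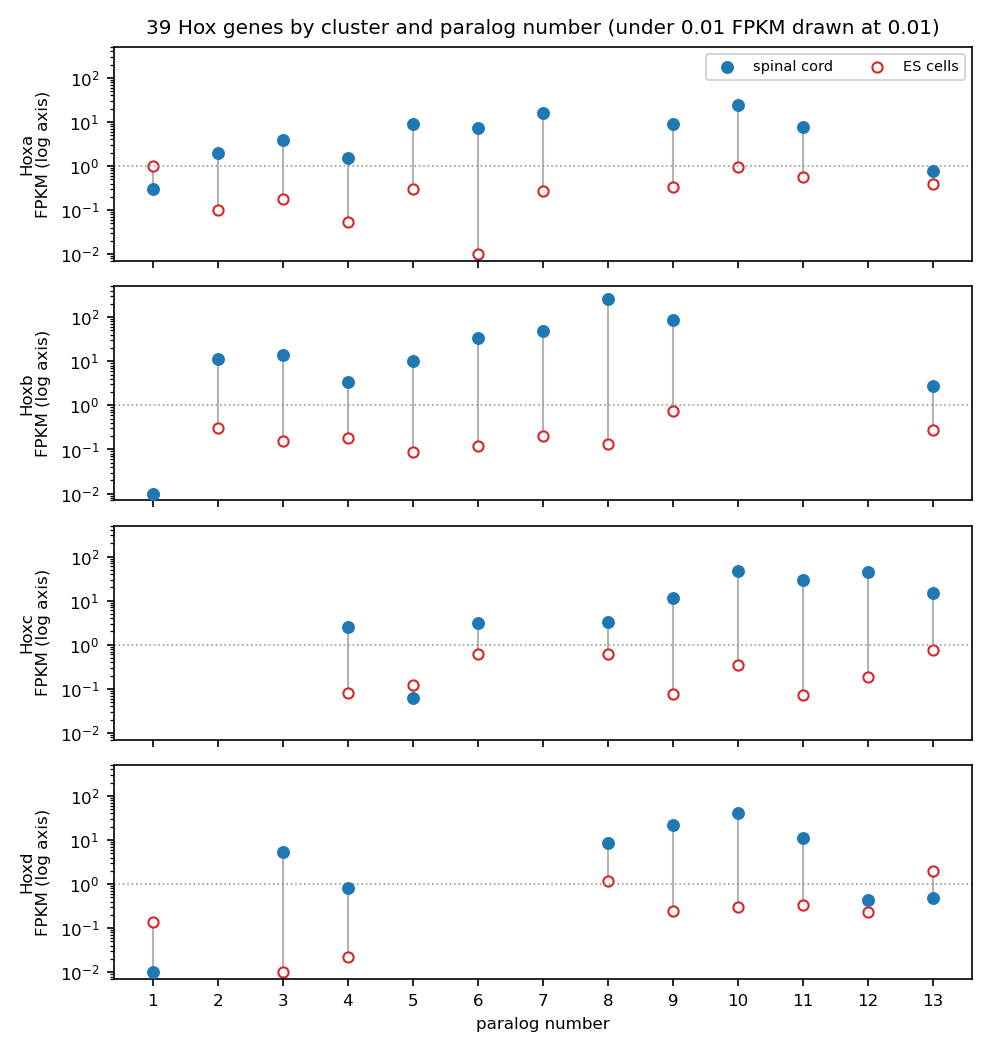
FPKM (vertical, log axis) of the 39 Hox genes in newborn spinal cord (filled blue) and ES cells (open red), by paralog number (horizontal) in each of the 4 clusters, with values under 0.01 FPKM drawn at 0.01 and a dotted line at 1 FPKM. In spinal cord the Hoxb genes peak at Hoxb8 with 252 FPKM, the Hoxc and Hoxd genes are highest at Hoxc10 and Hoxd10, and nearly all ES values lie below 1 FPKM.

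Factors of the forebrain and midbrain stayed silent in the cord, with few exceptions. Of 15 genes, 5 exceeded 1 FPKM in either library. Emx1, Dlx1 and Six6 were under 1 FPKM in both libraries, and Otx2, a factor of ES cells and of the anterior brain, was at 3.14 FPKM in ES cells and listed at 0 in cord. Neurod6, usually a marker of cortical neurons, was listed at 0 in ES cells and at 12.6 FPKM in cord.

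Spinal interneuron factors were more than 2-fold higher at 23 of 29. The dorsal inhibitory factors Pax2 and Lbx1 reached 25.7 and 20.2 FPKM, and the dorsal excitatory factors Lmx1b and Tlx3 reached 15.1 and 10.4. Evx1 and En1, of V0 and V1 neurons, were under 1 FPKM. Motor neuron factors were present but low, 5 of 9 more than 2-fold higher. Isl1, Isl2, Lhx3 and Mnx1 (Hb9) were at 2.91, 3.07, 2.29 and 1.54 FPKM in cord, all from under 1 FPKM in ES cells. The retinoic acid enzyme Aldh1a2, which limb-level motor neurons and meninges express, was the highest at 1.59 and 25.1 FPKM. Etv4 was lower in cord, at 58.5 and 16.4.

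Among proneural and neuron-forming factors, 11 of 13 were more than 2-fold higher, with a median log2 ratio of 8.60, or 2.89 with 1 FPKM added. These 13, of 18 found, had a median of 0.0167 FPKM in ES cells, so most were counted only through their cord level. Myt1l, which keeps non-neuronal genes off, was at 0.00440 and 15.8 FPKM, and the Ebf factors of newborn neurons Ebf1 and Ebf3 were at 40.0 and 68.4. The early factors Neurog1, Neurod4 and Atoh1 were listed at 0 in cord, and Neurog2 was at 0.357. Progenitor domain factors were mixed, with 9 of 14 more than 2-fold higher. Nkx2-2 and Nkx6-1, of the ventral cord and of oligodendrocyte precursors, were at 7.50 and 9.66 FPKM. Olig1 and Olig2 were already at 35.6 and 18.0 FPKM in the ES library, against 79.3 and 14.7 in cord. Of 19 Notch pathway genes, 9 were more than 2-fold higher and 6 lower, against 30.5% and 35.7% of all loci, with a median log2 ratio of 0.03. At equal FPKM sums 9 were more than 2-fold higher and 3 lower, with a median of 0.66. The targets Hes5 and Hey2 were higher (0.147 to 21.2 and 0.202 to 13.4 FPKM), Notch1 was level (4.93 and 4.57), and the DNA-binding effector Rbpj was lower (106 and 8.55).

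Glial genes were higher in cord along with the neuronal ones. Of 25 astrocyte and radial glia genes, 22 were more than 2-fold higher (median log2 ratio 5.24). Fabp7, the lipid carrier of radial glia, was at 0.453 and 729 FPKM and Sparcl1, a synapse-promoting protein of astrocytes, at 0.297 and 673. The filament Gfap and the water channel Aqp4 were at 117 and 72.0 FPKM in cord. Apoe was abundant in both, at 456 and 1291 FPKM, and Tnc, an extracellular matrix protein that fibroblasts also make, was lower in cord (67.0 and 16.2 FPKM).

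Oligodendrocyte genes were more than 2-fold higher at 16 of 19. The precursor genes Sox10, Pdgfra and Gpr17 were at 25.0, 20.5 and 15.7 FPKM in cord. Of the myelin genes, Mbp was at 1.61 and 61.8 FPKM, whereas Mog and Opalin, of mature myelin, were under 1 FPKM. Schwann cell and nerve root genes were more than 2-fold higher at 9 of 12. Markers of sensory ganglia were more than 2-fold higher at 10 of 11, with a median level of 10.4 FPKM in cord, where spinal neurons or glia also express several, such as Tlx3 and Ret. Avil and P2rx3, which label sensory neurons, were at 2.48 and 1.38 FPKM, against 28.1 and 14.9 in the spinal column.

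Ependymal genes were few. 6 of 15 exceeded 1 FPKM, with Foxj1, the master factor of motile cilia, at 1.98 and 9.47. Microglia and macrophage genes were more than 2-fold higher at 15 of 18. The complement genes C1qa, C1qb and C1qc were at 23.5, 39.7 and 31.4 FPKM and the microglial receptors Cx3cr1 and P2ry12 at 5.68 and 2.77. Endothelial genes were more than 2-fold higher at 14 of 20, led by the barrier claudin Cldn5 at 0.295 and 60.3 FPKM. The glucose transporter Slc2a1, which ES cells also use, was lower (224 and 28.0 FPKM), as was Pecam1 (16.8 and 5.03).

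Mesenchymal genes had no common direction. Of 24 meningeal and fibroblast genes, 7 were more than 2-fold higher and 9 more than 2-fold lower in cord, shares close to the 30.5% and 35.7% of all loci. At equal FPKM sums the balance turned, with 10 higher and 6 lower. Ptgds and Slc6a13, of the meninges, were at 0.581 and 337 and at 0.0243 and 19.8 FPKM. Several fibroblast genes were high in the ES library, where the matrix genes Fn1 and Col1a1 and the calcium-binding protein gene S100a4 were at 294, 172 and 196 FPKM against 15.5, 68.9 and 7.39 in cord. The contractile genes Acta2 and Tagln were at 167 and 169 FPKM in ES cells and 3.11 and 5.10 in cord. The ES cells had been grown on fibroblasts, and the part of the feeder layer in these values was not tested. Pericyte and smooth muscle genes were more than 2-fold higher at 6 and lower at 4 of 11, against 30.5% and 35.7% of all loci. The pericyte genes Rgs5 and Vtn ran the other way, at 17.1 and 55.0 FPKM in cord from 0.417 and 0.0483.

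Markers of blood and muscle were also measurable in the dissected cord. Of 18 listed erythroid genes, 14 were found by symbol and 6 stood above 1 FPKM. Of these 6, 3 were more than 2-fold higher in cord and 2 lower, or 3 and 1 at equal FPKM sums. Alpha globin (Hba-a2), which is among them, was at 1899 FPKM at its highest locus. The beta globins Hbb-bs and Hbb-bt, which these counts leave out, were at 1155 and 469 FPKM, and both were listed at 0 in ES cells. The 2 alpha globin loci are near-identical, so reads may be split between them. Neutrophil granule genes were more than 2-fold higher at 4 of 6, with S100a8 and S100a9 at 30.8 and 14.5 FPKM. Of 15 skeletal muscle genes, 10 were more than 2-fold higher and 4 lower, or 10 and 1 at equal FPKM sums. They reached 112 FPKM for Acta1 and 47.9 for Myl1, where the spinal column table listed Myl1 at 7810.5, and the regulators Myod1 and Myog were under 1 FPKM. Of 11 cartilage and bone genes, 4 were more than 2-fold higher and 5 more than 2-fold lower, against 30.5% and 35.7% of all loci. At equal FPKM sums the counts were 6 and 5, against 39.1% and 24.6% of all loci. Col2a1 was at 1.41 and 2.52 FPKM. The part of these tissues in the other ratios was not tested.

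Imprinted genes are expressed from 1 parental allele. They were more than 2-fold higher at 15 of 28 and more than 2-fold lower at 7, against 30.5% and 35.7% of all loci. Ndn (necdin), a growth suppressor of neurons, was at 11.2 and 336 FPKM and Nap1l5, which lies within another gene, at 0.193 and 214. Among those lower in cord, Phlda2 was at 118 FPKM in ES cells and listed at 0 in cord, and Peg10 was at 97.9 and 13.5. Genes of the interferon response and antigen presentation were more than 2-fold lower at 9 of 14, among them Ifitm1, Ifitm2 and Ifitm3 at 163, 447 and 378 FPKM in ES cells and 17.3, 79.9 and 55.3 in cord. Cholesterol synthesis genes were mostly within 2-fold (13 of 21, with 7 more than 2-fold lower, or 2 at equal FPKM sums, median log2 ratio -0.76, or -0.13 at equal FPKM sums). Immediate early genes, which respond to stimulation and to dissection, were more than 2-fold lower at 10 of 15, with Junb at 22.8 and 1.50 FPKM and Fos at 1.58 and 1.91. The Y-linked gene Ddx3y was at 8.05 and 8.36 FPKM and Xist under 1 FPKM in both libraries.

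Ranked by ratio alone, among named loci above 10 FPKM in 1 library and above 0.1 FPKM in both, the highest 15 in cord combined blood, glia, neurons and position. Alpha globin came first, at both of its loci, followed by Sparcl1, Hoxb8, Fabp7, Nap1l5, the calcium sensor Vsnl1, Caly, Ly6h, Nsg2, the neuronal elongation factor Eef1a2, Tmem130, Gfap, Ptgds and Agap2. Eef1a2 was at 0.307 and 231 FPKM, beside 2238 FPKM of the ubiquitous Eef1a1 in cord. The lowest 15 included Dppa5a, Dnmt3l, Cldn4, Epcam, Tdgf1, Sall4, the sialic acid hydroxylase Cmah, Krt8, Igf2bp1, Trh, Mybl2, Krt18 and Rbmxl2. Trh, the precursor of thyrotropin-releasing hormone, was thus a peptide gene of the ES library, at 135 and 0.371 FPKM. The RNA-binding protein Igf2bp1, of embryonic cells, was at 103 and 0.245 FPKM.

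Housekeeping transcripts headed both libraries. In ES cells the highest levels belonged to Rpl41, Eef1a1, Rplp1, Ftl1, Gapdh, Dppa5a, Rps28, Ppia, Rps2 and Mir703. In spinal cord they included Rpl41, Tmsb10, Rps27, Rps28, Eef1a1, Ppia, Rpl39 and the 2 alpha globin loci. Tmsb10, an actin-binding peptide of growing neurons, was at 839.8 and 2878 FPKM. The 100 most abundant loci held 34.3% of the FPKM sum in ES cells and 26.0% in cord.

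Loci of small RNAs need to be read apart. MicroRNA hairpins, snoRNAs and scaRNAs, at 123 loci above 1 FPKM, are so short that a few fragments give a high FPKM. Of them, 89 were listed at 0 in 1 library, against 450 such loci in all. SnoRNAs were listed at 0 in cord at 46 of 67 loci, and led the loci listed at 0 there (Snord49a, Snord42b, Snord12, Snora61, Snord49b, Snord96a, Snord69, Snord72 and Snord32a, beside Pou5f1). Those highest in cord and listed at 0 in ES cells were Hbb-bs, Mir5126, Mir9-2, Hbb-bt, Sst, Mir128-1, Mir568, Mir877, Mir124a-2 and Mir3960. Mir9-2 was at 541 FPKM in cord and listed at 0 in the spinal column table.

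The host transcripts of microRNAs are far longer. Mir9-3hg, the host of a neural microRNA, was at 0.193 FPKM in ES cells and 18.3 in cord, and Mir124-2hg, a host of the neuronal miR-124, at 0.0197 and 4.50. Mir17hg, the host of a cluster that promotes proliferation, was at 2.14 and 0.00942 FPKM. The mature RNAs themselves were not measured. Those of RefSeq for the first and the last of these hosts (GRCm38.p6, plus strands) are shown because their seeds, bases 2 to 8 in capitals, decide which messages they pair with, and the miR-17 and miR-20a seeds are the same.

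miR-9-5p, chr7:79505279-79505301: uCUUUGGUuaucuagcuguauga
miR-9-3p, chr7:79505318-79505339: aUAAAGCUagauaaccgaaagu
miR-17-5p, chr14:115043684-115043706: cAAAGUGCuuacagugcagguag
miR-20a-5p, chr14:115044183-115044205: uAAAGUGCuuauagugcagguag
miR-19a-3p, chr14:115044048-115044070: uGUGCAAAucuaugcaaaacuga
miR-92a-3p, chr14:115044476-115044496: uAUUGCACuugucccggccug

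Loci that differed most between the libraries also differed in structure. The median length of loci was 13176 bp where cord was more than 32-fold lower, 23246 bp within 2-fold and 42637 bp where cord was more than 32-fold higher. Among loci whose coordinates no other row shares, 32.7% of the highest class spanned over 100 kb, against 3.38% of the lowest class and 14.1% of all. FPKM already divides by transcript length, and these are lengths of the whole locus, introns included.

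Promoters of both extremes had fewer CpG dinucleotides. The median ratio of observed CpG to that given by C and G content was 0.504 in the lowest class, 0.780 within 2-fold and 0.513 in the highest class, with 0.389 over all promoters of the RefSeq table. Short motifs, searched on both strands, differed among the classes as well. The ETS-type motif CCGGAAG was found in 2.17% of promoters of the highest class, 21.5% within 2-fold and 8.31% of the lowest class, against 9.12% of all promoters. The E2F-type motif TTTCCCGC was found in 0.686%, 1.69% and 4.43% of the same classes, and in 1.11% of all. TATAAA was found in 10.5%, 6.09% and 15.5%, and in 14.2% of all. The octamer ATGCAAAT, which Oct factors bind, was found in 4.71% of promoters of the lowest class and 1.60% of the highest, and the E-box CAGCTG in 17.7% and 22.7%, against 1.75% and 16.1% of all. These are counts of letters in a window and name no bound factor.

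Chromatin immunoprecipitation peaks of TAF9B and of RNA polymerase II (POL2), called by the authors in motor neuron cultures derived from another wild-type ES line, were set beside the classes. A TAF9B peak had its midpoint within 500 bp of an end of the locus at 18.6% of loci more than 32-fold higher in cord, 32.1% of loci within 2-fold and 15.9% of loci more than 32-fold lower, the last being 9.92% without loci that share coordinates with another row. The shares for POL2 were 15.6%, 58.8% and 17.1%. Without loci of shared coordinates the first and last were 13.7% and 7.59%, which turns their order. Both were most frequent at loci within 2-fold and at those 2 to 8-fold lower, and TAF9B fell off less than POL2 towards the loci highest in cord. In that class TAF9B peaks were at 231 loci and POL2 peaks at 194. Over all loci the order was reversed, with 28.2% for TAF9B and 47.5% for POL2. Lists of neuronal genes varied. TAF9B peaks lay at 9 of 28 synaptic vesicle genes, near the share of all loci, and at 7 of 18 pan-neuronal genes. They lay at 2 of 24 potassium, 1 of 16 calcium and 0 of 8 sodium channel genes and at 1 of 11 postsynaptic scaffold genes. Replication and mitosis genes had them at 15 of 30, and core pluripotency factors at 0 of 11. The cultures are neither of the 2 samples compared, and the loci highest in cord had a median of 0.306 FPKM in day 6 embryoid bodies of the same differentiation scheme, a table normalised separately.

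**Figure D5:**
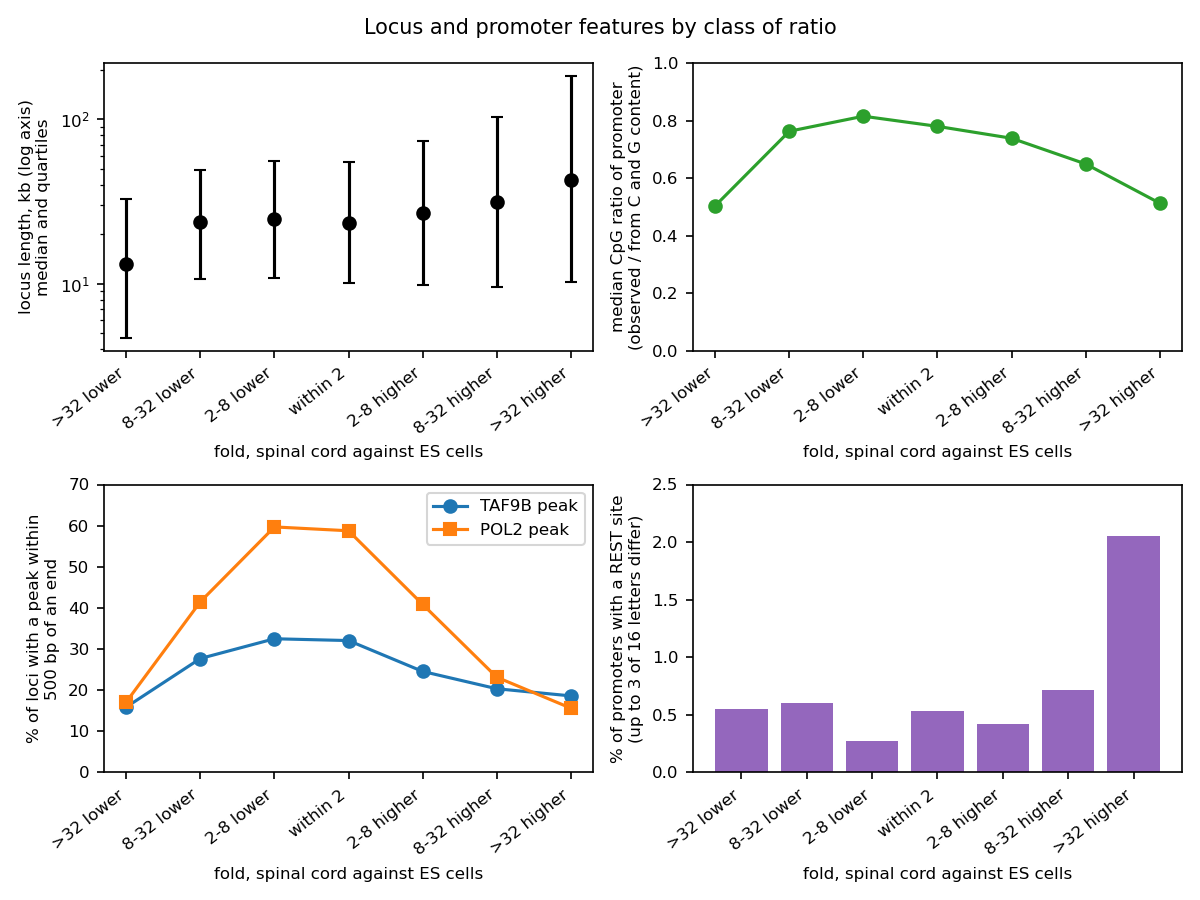
Features of the loci by class of fold difference between spinal cord and ES cells (horizontal, from more than 32-fold lower to more than 32-fold higher). The panels give the locus length (kb, log axis, median with quartiles), the median CpG ratio of the promoter, the share of loci (%) with a TAF9B or POL2 peak within 500 bp of an end, and the share of promoters (%) with a REST site. Length is greatest and REST sites are most frequent in the highest class, while the CpG ratio and both peak shares are highest in the middle classes.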

How the data were processed

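RNA-seq was run on poly-A RNA of ES cells and of newborn spinal cord, 1 library each. According to the submitters' processing notes the tools were TopHat, Cuffdiff and Bowtie and the build was mm9, the annotation was RefSeq genes, and versions are not given in the sources used here. The authors deposited FPKM values per locus, made by Cuffdiff for a pair of libraries at a time, so each table carries its own normalisation: the ES library recurs in the table beside the KO library with a constant factor between the listings. Values from the spinal column and embryoid body tables were only set side by side. FPKM gives no read counts, so the depth and the counting error behind each value are unknown, and low values, the ratios of low genes above all, are the least certain.

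The deposited tables also hold the authors' own fold changes, test statistics and p-values, none of which was used. The status column served to leave out failed estimates (FAIL, HIDATA). The deposited peak lists give a score per peak, called by the authors with MACS on the motor neuron cultures, and that score was used only to rank peaks. The embryoid body tables of earlier days were not used.

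The log2 ratio of FPKM in spinal cord over ES cells was taken with nothing added, for loci above 1 FPKM in at least 1 library. A locus under 1 FPKM in 1 library thus enters only through the other, so lists near 0 in 1 library lean to 1 direction by construction. A locus listed at 0 in 1 library has no fold, counts as higher or lower, and was ranked beyond all others in medians. Differences are called at 2-fold, 8-fold or 32-fold by size alone. With 1 library per side no test, p-value or SD was computed. Gene symbols came from RefSeq for 98.3% of loci, and each gene is represented by its locus of highest level. Promoters and microRNAs came from the RefSeq tables of GRCm38.p6, matched by name and not by coordinate. Peaks and loci share the deposited build.

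The members and the 63 gene lists were chosen with earlier results of these data known. Named genes are list members, the 15 highest and 15 lowest ratios among loci above 10 FPKM in 1 library and 0.1 FPKM in both, the 10 highest levels in each library, and the 10 highest levels among loci listed at 0 in the other library. Families by symbol, genes with a REST site, microRNA host transcripts and the histone H1f0 were named after their values had been seen. Some genes are not reported here, so lists of names can be shorter than the counts beside them.

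Alternatives were 0.1 or 1 FPKM added to each value, other filters on low values, other scalings, the other listing of the ES library, 1 locus per gene, removal of a lowess trend with locus length, and other windows or peak thresholds. Python 3.11.15, pandas 2.3.3, numpy 2.4.6, statsmodels 0.14.6 and matplotlib 3.10.9 were used, and the ratio, peak and motif steps were tested on simulated data.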

Additional observations from a re-analysis of the deposited data

How the results depend on the processing

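With 1 library per side, no error stands beside any of these values. No paired analysis was possible because each side has 1 library and no test was run. Counts more than 2-fold higher ranged from 2068 to 6204 and counts more than 2-fold lower from 3529 to 7167. The 2068 came from loci above 1 FPKM in both libraries, a filter that removes loci silent in ES cells by construction, and it left 17 gene lists with a median more than 2-fold higher. Scaling to the same FPKM sum moved the median log2 ratio of all loci to 0.37 and that of Taf9b to 4.30, while adding 1 FPKM gave 2.41 for Taf9b. Using the ES library labelled KO, an alternative chosen after seeing the data, gave 1.16 for Taf9b. The share of loci more than 32-fold higher with a TAF9B peak was 33.0% within 5000 bp and 11.2% with only the peaks of higher score. Over all loci these shares were 40.3% and 18.6%. For loci more than 32-fold lower the share was 27.2% within 5000 bp and 9.92% without loci of shared coordinates, also chosen after seeing the data. Of 715 list medians recomputed over 61 lists, 533 moved by less than 1.5-fold, and 173 moved further without a change of direction beyond 2-fold. The sign changed in 19, of which 10 came from 4 lists whose median was within 2-fold (respiratory chain, Notch, meninges, and cartilage and bone). The other 9 were forebrain factors at -14.06 with loci above 0 FPKM, motor neuron factors at -0.73 and pericyte genes at -1.51 with loci above 5 FPKM, and, with loci above 1 FPKM in both libraries, motor neuron factors at -0.0895, proneural factors at -0.0683, Schwann cell genes at -0.0392, pericyte genes at -1.60, erythroid genes at -1.01 and skeletal muscle genes at -0.53. For glycine receptor genes the ES library labelled KO gave no finite median. Each of these filters changes which members are counted. Low levels also limit the ratios, since the depth is unknown.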

Other observations

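Further families, grouped by gene symbol and picked after their values had been seen, are given as values. Of 27 RNA polymerase subunit genes (Polr), 19 were more than 2-fold lower in spinal cord and none more than 2-fold higher, with a median log2 ratio of -1.49, and 12 were more than 2-fold lower at equal FPKM sums, against 24.6% of all loci. Mitochondrial ribosomal protein genes (Mrpl, Mrps) were more than 2-fold lower at 36 of 76 and higher at 1, with a median of -0.94. At equal FPKM sums 18 of the 76 were more than 2-fold lower, close to the share of all loci. Genes of the vacuolar proton pump (Atp6v), which acidifies lysosomes and other vesicles, were more than 2-fold higher at 6 of 17, close to the 30.5% of all loci, and more than 2-fold lower at 1, and at equal FPKM sums 10 were more than 2-fold higher, against 39.1% of all loci.

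Of 69 potassium channel genes taken by symbol (Kcn), 58 were more than 2-fold higher and 6 more than 2-fold lower, against 30.5% and 35.7% of all loci. At equal FPKM sums the counts were 62 and 3, against 39.1% and 24.6% of all loci. Calcium/calmodulin kinase genes (Camk) were more than 2-fold higher at 12 of 14, and the synaptic adhesion genes of the Slitrk family at 5 of 5. Both counts were the same at equal FPKM sums. Of 17 Sox transcription factor genes, 12 were more than 2-fold higher and 3 more than 2-fold lower, or 13 and 2 at equal FPKM sums.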
